A study of Mus musculus with 6 samples.

Results

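Integrins and laminins were measured as 37 genes, which are all rows of the count tables with the symbol of an integrin alpha chain (Itga, 18 genes), an integrin beta chain (Itgb, 8 genes) or a laminin chain (Lama, Lamb and Lamc, 11 genes), out of 26214 features. The RNA was that of colon tumours induced in mice with AOM (azoxymethane, which is carcinogenic) and DSS (dextran sulfate sodium, which injures the colon lining). The samples were 3 from Trim21 -/- mice (knockout) and 3 from Trim21 +/+ mice (wild type), all given AOM/DSS. The labels used here name no strain, sex, age, time after treatment or kind of Trim21 allele. The comparison asks how integrin and laminin transcripts of epithelial, leukocyte and stromal type differ between tumours with and without Trim21, a ubiquitin ligase and cytosolic antibody receptor.

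Integrins are adhesion receptors, each a pair of an alpha and a beta chain, that link the cytoskeleton to matrix proteins or to ligands on other cells. Laminins are secreted trimers of an alpha, a beta and a gamma chain that form the sheet of the basement membrane. In the gut, epithelial cells sit on this sheet through integrin alpha6 beta4 and laminin-332, leukocytes carry the beta2 and beta7 integrins, and fibroblasts, smooth muscle and vessels carry matrix-binding integrins and other laminins. The 37 genes were placed in 4 classes by textbook expression. These were epithelial (8 genes), leukocyte (8 genes), stromal (12 genes) and broad, for genes of several cell types (9 genes).

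Knockout libraries held 17937821 to 19987295 counts and wild-type libraries 27085599 to 29742757 counts, of which integrins and laminins made up 0.333% to 0.425%. Below, values are CPM (read counts scaled to library size with TMM factors) and are listed in the order of replicates 1, 2 and 3. Trim21 had 12.1, 18.9 and 12.8 CPM in the knockout and 29.8, 20.3 and 19.5 CPM in the wild type. It was lower in every knockout library, in replicate 2 only narrowly, but not absent. The log2 fold change was -0.67 (SE 0.24, edgeR adjusted p = 0.418), where SE is the standard error, and -0.45 without wild-type replicate 1. Gene-level counts do not resolve the exons. Epithelial markers were present in every library, and 8 of them summed to 5681 to 5919 CPM in the knockout and 5292 to 5987 CPM in the wild type. Wild-type replicate 3 stood apart in 5 skeletal muscle markers, with a sum of 2880.4 CPM against 2.90 to 13.1 CPM in the other 5 libraries. Smooth muscle markers (6 genes) summed to 670.0 to 1143 CPM in the knockout and 185.1 to 644.1 CPM in the wild type, lowest in wild-type replicate 1. In bulk tumour RNA, fewer cells of a type and less RNA per cell cannot be told apart.

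Epithelial members had nearly level values in knockout and wild-type tumours, while stromal members had mostly higher values in the knockout, though none passed the test over all genes. With edgeR's quasi-likelihood test, 0 of 36 tested members had an adjusted p under 0.05, beside 0% of the 16281 genes tested. DESeq2 and limma-voom also called 0 members. At an unadjusted p under 0.05 there were 6 members, all stromal and all higher in the knockout, beside 10.7% of all genes in either direction and 6.63% in the higher one. Over the omissions of single libraries the count was 5 to 11, with 11 (10 higher and 1 lower) without knockout replicate 1. No share over all genes is at hand for these fits, so these counts have no background beside them. Knockout values lay all above the wild-type values for 6 members (9.43% of all genes) and all below for 2 (8.47%), beside 17.9% of all genes for either. The log2 fold change was above 0 for 22 of 36 members, beside 47.9% of all genes, with a median of 0.17 for the members and -0.01 for all genes. Without knockout replicate 3 the median of the members was -0.0045, with 18 of 37 above 0.

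**Figure D1:**
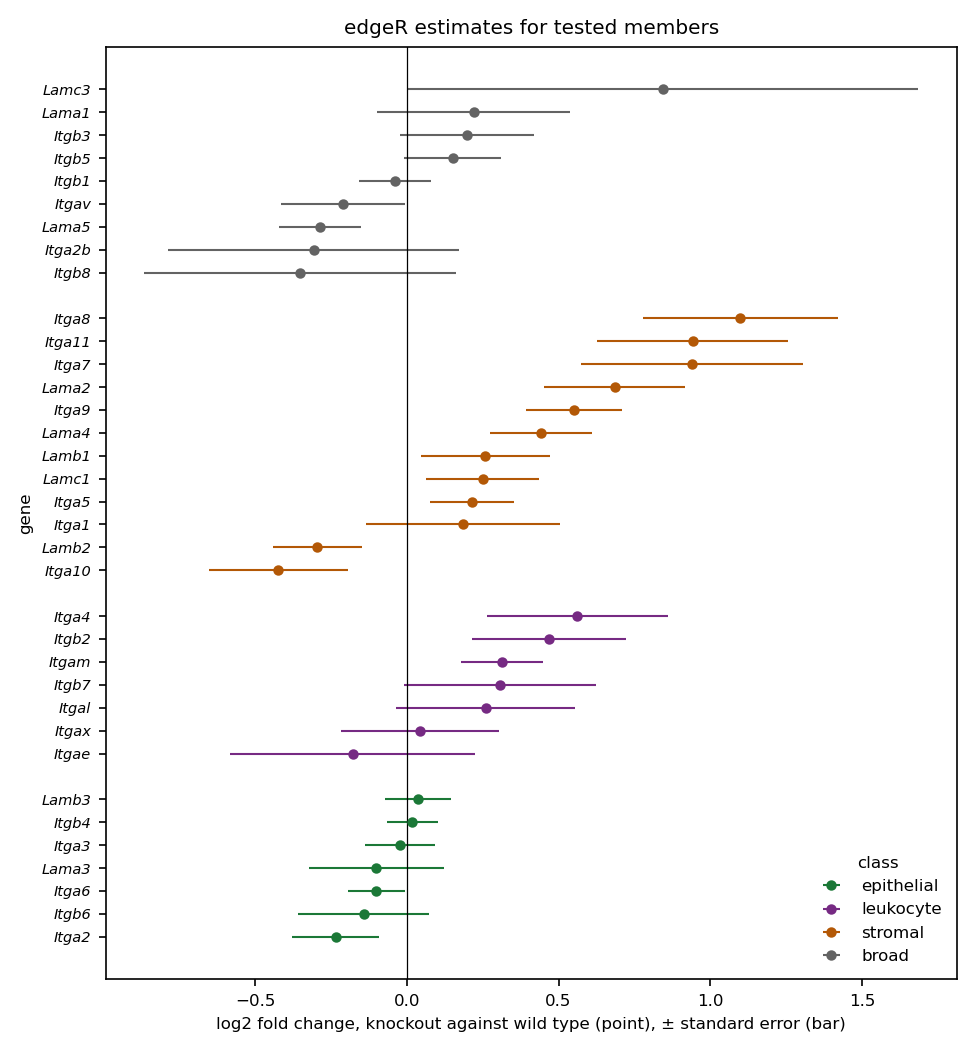
Log2 fold change (x axis, knockout against wild type) of 35 tested members (y axis), with bars of 1 standard error, coloured by class. Stromal members reach from -0.42 to 1.10 and epithelial members shown stay between -0.23 and 0.04.

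Levels of different genes were compared in RPKM, reads per kilobase of exon on the CPM scale. Itgb1, the shared beta chain of most matrix-binding integrins, was the highest member at 139.9 to 177.6 RPKM over the 6 libraries. Itga6, the alpha chain of the hemidesmosome integrin, was next with 68.6 to 82.3 RPKM and did not reach Itgb1 in any library. With the longest transcript as the length, Itga6 averaged 159.9 and Itgb1 168.5 RPKM, and their ranges over libraries overlapped. Itgb4 (30.9 RPKM on average), Itgav (29.4), Itga3 (25.5) and Itga2 (23.7) were lower, and their ranges over libraries overlapped from one to the next. Itgad was lowest at 0.0742 RPKM. The 8 epithelial members made up 42.7%, 42.6% and 40.2% of the summed RPKM of all members in the knockout and 42.9%, 43.3% and 45.9% in the wild type. Stromal members made up 12.2%, 12.2% and 13.0% against 10.7%, 10.6% and 9.97%. For leukocyte members the shares were 5.57%, 6.29% and 7.04% against 4.88%, 5.01% and 5.26%. Knockout shares lay above all wild-type shares for stromal and for leukocyte members, and below them for epithelial members. With the longest transcript as the length, the epithelial shares overlapped, at 49.6% in knockout replicate 1 and 49.5% in wild-type replicate 1, and the other 2 did not. Shares are parts of a total, so the share of a class can rise where other members fall. Members made up least of the counts in knockout replicate 1, at 0.333% against 0.378% to 0.425% elsewhere. Its leukocyte mean of log2(CPM + 1), 3.93, was below all wild-type means (4.03 to 4.17), although its leukocyte share was above theirs.

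**Figure D2:**
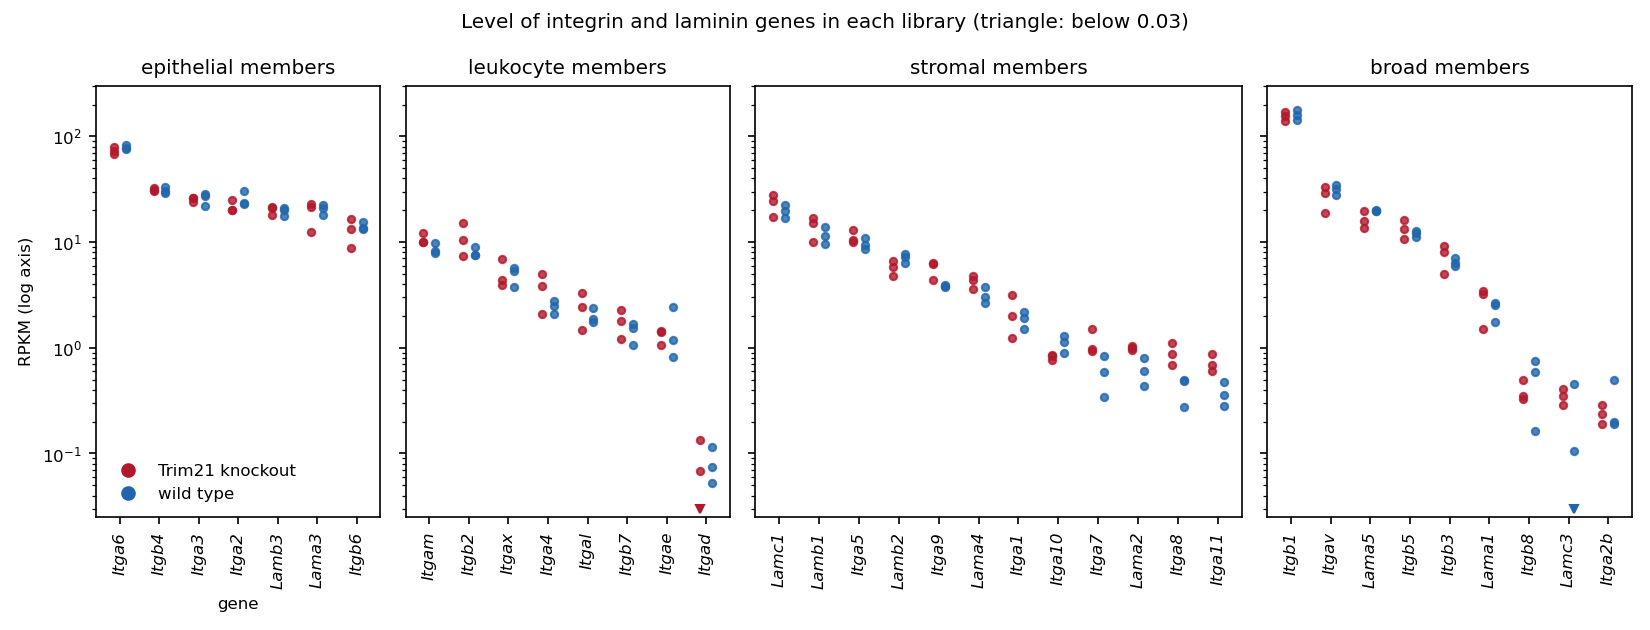
RPKM on a log axis (y axis) of 36 members (x axis), 1 point per library, by class and in order of the mean. Epithelial members shown lie between 8.77 and 82.3 RPKM. Among stromal members, Itga10, Itga7, Lama2, Itga8 and Itga11 average below 1 RPKM, and in other classes Itgb8, Lamc3, Itga2b and Itgad do.

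The excess of epithelial over stromal members was smaller in every knockout library than in any wild-type library. On the scale of mean log2(CPM + 1), the 8 epithelial members exceeded the 12 stromal members by 2.70, 2.96 and 2.91 in the knockout and by 3.42, 3.17 and 3.33 in the wild type. Over the 7 tested leukocyte members the excess was 3.44, 3.24 and 3.11 against 3.60, 3.60 and 3.57. These differences describe the members and carry no test. Stromal means were 4.67, 4.73 and 4.84 against 4.34, 4.46 and 4.39 and did not overlap. Epithelial means were 7.37, 7.69 and 7.75 against 7.76, 7.63 and 7.72, and leukocyte means 3.93, 4.45 and 4.64 against 4.17, 4.03 and 4.15, with overlap in both. Marker sums of some other cell types differed alongside, and those of others overlapped. Smooth muscle sums did not overlap between the groups, by a narrow gap. On the scale of mean log2(CPM + 1) these markers did overlap, at 7.47, 6.63 and 6.89 against 4.48, 6.66 and 5.92. Macrophage sums (6 genes) were 250.9 to 358.9 CPM in the knockout and 225.6 to 232.6 CPM in the wild type. Fibroblast sums (6 genes) overlapped at 1549 to 2224 CPM in the knockout and 1070.0 to 1636 CPM in the wild type. Their part in the class differences was not tested.

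**Figure D3:**
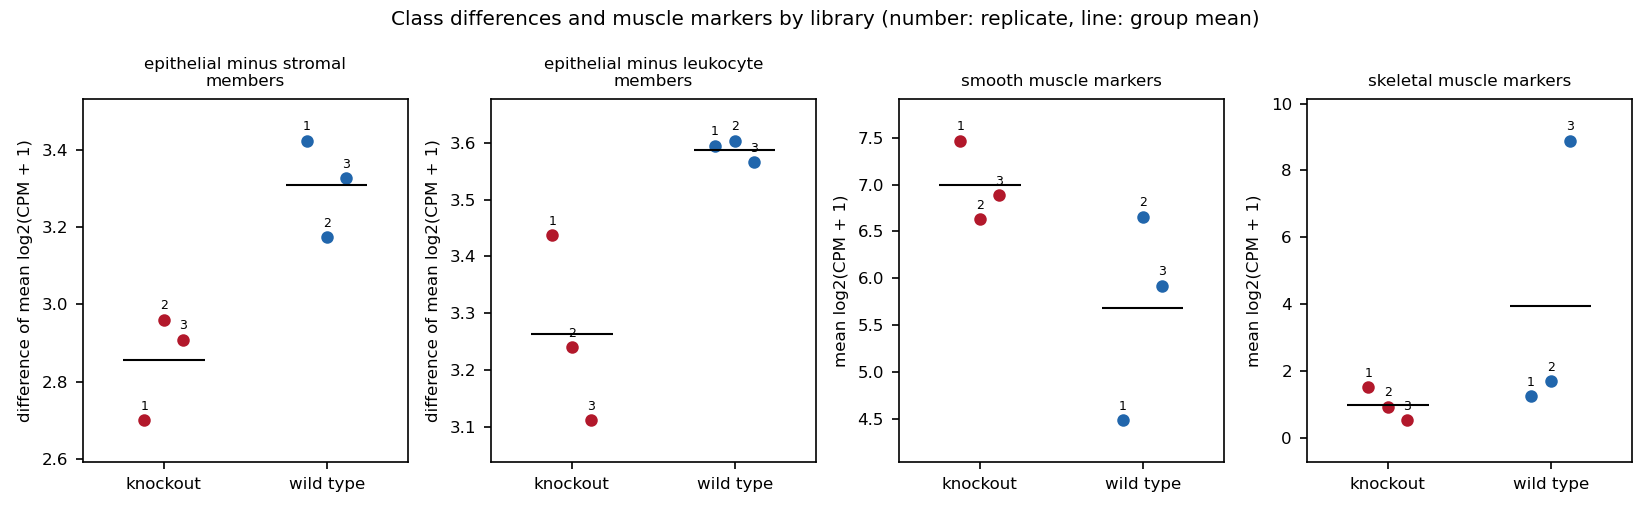
Differences of class means (first 2 panels) and mean level of muscle markers (last 2 panels), on the scale of log2(CPM + 1) (y axis), by library, with replicate numbers beside the points and lines at the group means. The epithelial excess over stromal members is 2.70 to 2.96 in the knockout and 3.17 to 3.42 in the wild type, and skeletal muscle markers are high in wild-type replicate 3 only.

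Among stromal members, integrin alpha chains of matrix-producing and contractile cells had the largest positive log2 fold changes. In this class 10 of 12 genes were above 0, the median was 0.35, and 6 had an unadjusted p under 0.05, beside 10.7% of all genes. The median was 0.51 without knockout replicate 1, 0.22 without knockout replicate 3 and 0.24 when wild-type replicate 3 was left out. Over the omissions of single libraries, 4 to 5 stromal genes were higher in the knockout at this unadjusted p. Leaving out replicate 1 of either group also gave 1 lower gene. Knockout values lay all above the wild-type values for 5 of the 12 (9.43% of all genes) and all below for 1 (8.47%). The 6 genes are Itga8, Itga9, Itga11, Lama2, Lama4 and Itga7. RefSeq promoter windows (GRCm38.p6), which were at hand for 23 of the 37 members, are shown for the 4 of them that have one, because these genes had the smallest unadjusted p among the members. Each is the 250 bases before the RefSeq start, on the gene's strand, without bases of the gene's own annotated exons. Capitals mark a match to the CArG box, the binding sequence of serum response factor, or to TGANTCA, that of AP-1. The windows of Itga9 and Lama2 lie inside the span of the gene in GENCODE.
Itga8, chr2:12301945-12302194 (minus strand): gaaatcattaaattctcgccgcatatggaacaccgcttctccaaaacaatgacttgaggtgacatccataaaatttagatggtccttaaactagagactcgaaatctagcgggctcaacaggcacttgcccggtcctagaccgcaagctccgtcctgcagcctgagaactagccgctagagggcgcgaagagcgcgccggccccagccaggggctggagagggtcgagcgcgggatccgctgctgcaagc
Itga9, chr9:118711442-118711656 (plus strand): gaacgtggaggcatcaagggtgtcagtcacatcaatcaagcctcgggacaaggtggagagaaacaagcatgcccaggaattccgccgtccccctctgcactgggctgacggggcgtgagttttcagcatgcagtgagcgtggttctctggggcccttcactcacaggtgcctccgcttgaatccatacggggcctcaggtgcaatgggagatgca
Itga11, chr9:62677605-62677825 (plus strand): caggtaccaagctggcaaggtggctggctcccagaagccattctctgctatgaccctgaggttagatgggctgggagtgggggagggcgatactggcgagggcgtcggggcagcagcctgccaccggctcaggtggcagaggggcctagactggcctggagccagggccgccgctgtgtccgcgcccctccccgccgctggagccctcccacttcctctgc
Lama2, chr10:27616943-27617192 (minus strand): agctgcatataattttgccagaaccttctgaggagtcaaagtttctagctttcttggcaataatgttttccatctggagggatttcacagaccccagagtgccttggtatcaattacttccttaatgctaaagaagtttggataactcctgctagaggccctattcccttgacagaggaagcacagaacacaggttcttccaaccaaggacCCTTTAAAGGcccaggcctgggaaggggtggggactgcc
Both motifs read the same on either strand. A CArG box was found in the Lama2 window, 39 bases before the start, and in 1 window of Itgb6, which is 2 of 26 member windows, beside 1.47% of all 32851 windows. TGANTCA was found in 1 member window, that of Itgax, beside 6.75% of all windows. A match describes letters, not binding.

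Itga8, the alpha chain of the nephronectin receptor of smooth muscle and fibroblasts (chromosome 2, 12106632 to 12301922, minus strand of mm10), had 8.23, 5.05 and 6.41 CPM in the knockout and 2.01, 3.62 and 3.56 CPM in the wild type. Every knockout value exceeded every wild-type value, and wild-type replicate 1 was lowest. The log2 fold change was 1.10 (SE 0.32, edgeR adjusted p = 0.356), which is 2.14-fold, and the unadjusted p was 0.0104. An antisense gene, E030013I19Rik, shares 5.05% of its exon bases, and the strand handling of the counts is not known here. Itga9, which binds tenascin and VCAM-1 and is found on smooth muscle and lymphatic endothelium (chromosome 9, 118606690 to 118901003, plus strand), had 33.7, 47.8 and 49.0 CPM in the knockout and 29.7, 28.9 and 30.4 CPM in the wild type. The wild-type values were close together, and knockout replicate 1 was nearest to them. Its log2 fold change was 0.55 (SE 0.16, edgeR adjusted p = 0.349), with the smallest adjusted p among the members.

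Itga11, a collagen receptor chain of fibroblasts (chromosome 9, 62677826 to 62783982, plus strand), was low, at 4.46, 3.51 and 3.10 CPM in the knockout and 2.45, 1.46 and 1.85 CPM in the wild type. The groups did not overlap, with means of 3.69 ± 0.698 and 1.92 ± 0.5 CPM (SD, n = 3 each), and the log2 fold change was 0.94 (SE 0.32, edgeR adjusted p = 0.397). Itga7, the laminin receptor chain of muscle cells (chromosome 10, 128933818 to 128958282, plus strand), had 12.1, 7.47 and 7.86 CPM in the knockout and 2.75, 4.74 and 6.82 CPM in the wild type. Its highest wild-type value was in replicate 3, the library with skeletal muscle RNA, and its lowest in replicate 1, the library lowest in smooth muscle markers. The log2 fold change of 0.94 (SE 0.37, edgeR adjusted p = 0.437) was 1.28 without wild-type replicate 3 and 0.66 without wild-type replicate 1.

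**Figure D4:**
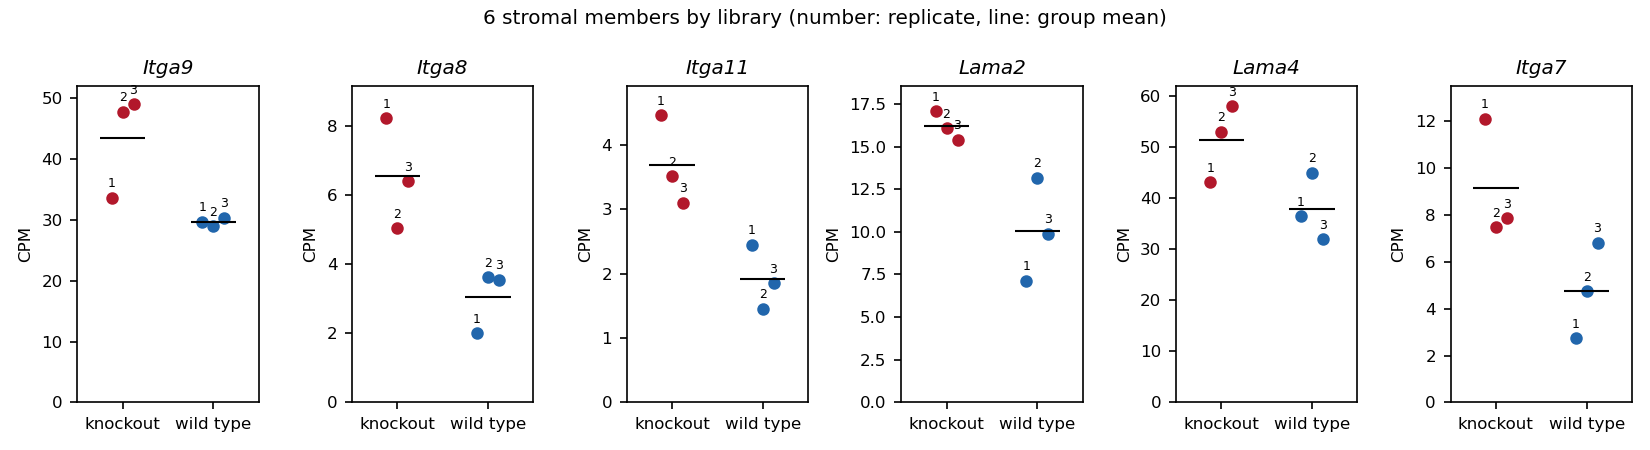
CPM (y axis, from 0) of the 6 stromal members with an unadjusted p under 0.05, by library, with replicate numbers beside the points and lines at the group means. Groups do not overlap for 5 of them, and for Lama4 wild-type replicate 2 (45.1) lies above knockout replicate 1 (43.2). The genes were chosen by p from these same values, which favours groups that do not overlap.

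Laminin alpha chains of muscle and vessels also had higher knockout means. Lama2, the alpha chain of the laminin of muscle and nerve sheaths (chromosome 10, 26980036 to 27619758, minus strand), had 17.1, 16.1 and 15.4 CPM in the knockout and 7.14, 13.2 and 9.90 CPM in the wild type. These do not overlap, and the log2 fold change was 0.68 (SE 0.23, edgeR adjusted p = 0.397). Lama4, the alpha chain of endothelial and smooth muscle basement membranes (chromosome 10, 38965515 to 39110188, plus strand), had 43.2, 53.0 and 58.1 CPM in the knockout and 36.5, 45.1 and 32.0 CPM in the wild type. Its groups overlapped, and the log2 fold change was 0.44 (SE 0.17, edgeR adjusted p = 0.429). Endothelial markers (6 genes) summed to 178.0 to 242.8 CPM in the knockout and 161.4 to 207.8 CPM in the wild type, and their part in the Lama4 difference was not tested.

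Lamc1, the gamma chain of most laminins, was the most abundant stromal member, with 144.3, 201.6 and 233.0 CPM in the knockout and 185.4, 161.4 and 139.9 CPM in the wild type. The groups overlapped, with a log2 fold change of 0.25 (SE 0.19, edgeR adjusted p = 0.641). Its usual partner Lamb1 ran in parallel, so that Lamc1 per Lamb1 in RPKM stayed between 1.60 and 1.76 in all 6 libraries, and between 1.01 and 1.11 with the longest transcripts. Lamb2, the beta chain that replaces Lamb1 in muscle and vessel laminins, had a log2 fold change of -0.30 (SE 0.15, edgeR adjusted p = 0.51), opposite in sign to Lamb1 at 0.26 (SE 0.21, edgeR adjusted p = 0.674). Lamb1 per Lamb2 in RPKM was 1.53, 2.56 and 3.52 in the knockout and 1.93, 1.83 and 1.26 in the wild type, so the groups overlapped. With the longest transcripts all 6 ratios were higher, at 1.997 to 5.58, and the groups overlapped too. Itga10, a collagen receptor chain best known from cartilage, was the 1 stromal gene with all knockout values below the wild type, at 3.98 to 4.39 against 4.60 to 6.67 CPM (log2 fold change -0.42, SE 0.23, edgeR adjusted p = 0.531). A predicted gene shares 33.5% of the Itga10 exon bases, so its level is uncertain. Itga1 and Itga5, chains of collagen and fibronectin receptors, had log2 fold changes of 0.19 and 0.22 and overlapping groups.

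Epithelial members were nearly level between the groups. Of the 8 genes, 2 had a log2 fold change above 0, the median was -0.10, and the groups overlapped for all 8. Itgb4, the hemidesmosome beta chain that binds the keratin network through plectin (chromosome 11, 115974709 to 116008412, plus strand), had 213.0, 216.3 and 225.8 CPM in the knockout and 202.5, 212.2 and 232.6 CPM in the wild type. This was a log2 fold change of 0.02 (SE 0.08, edgeR adjusted p = 0.95). Its partner Itga6 (chromosome 2, 71745616 to 71858416, plus strand) had 619.4, 715.5 and 660.3 CPM in the knockout and 691.9, 742.3 and 705.1 CPM in the wild type. Knockout replicate 1 was lowest, the groups overlapped, and the log2 fold change was -0.10 (SE 0.09, edgeR adjusted p = 0.709). Itga6 exceeded Itgb4 in RPKM by a factor of 2.26 to 2.72 in all libraries, or 4.19 to 5.04 with the longest transcripts, and the alpha6 chain also pairs with beta1.

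Lama3 and Lamb3 encode an alpha and a beta chain of laminin-332, the anchor of the hemidesmosome. Lama3 had 134.9, 231.0 and 247.1 CPM in the knockout and 239.5, 192.8 and 224.6 CPM in the wild type, with knockout replicate 1 below the other 5 libraries. Lamb3 had 118.7, 143.3 and 138.7 against 139.5, 118.0 and 133.1 CPM, and its groups overlapped. The log2 fold change was -0.10 (SE 0.22, edgeR adjusted p = 0.884) for Lama3 and 0.04 (SE 0.11, edgeR adjusted p = 0.914) for Lamb3. Lama3 was at 0.992 to 1.10 of the Lamb3 RPKM in 5 libraries and at 0.699 in knockout replicate 1. With the longest transcripts the ratio was lower, at 0.744 to 0.822 in the same 5 libraries and 0.524 in knockout replicate 1.

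**Figure D5:**
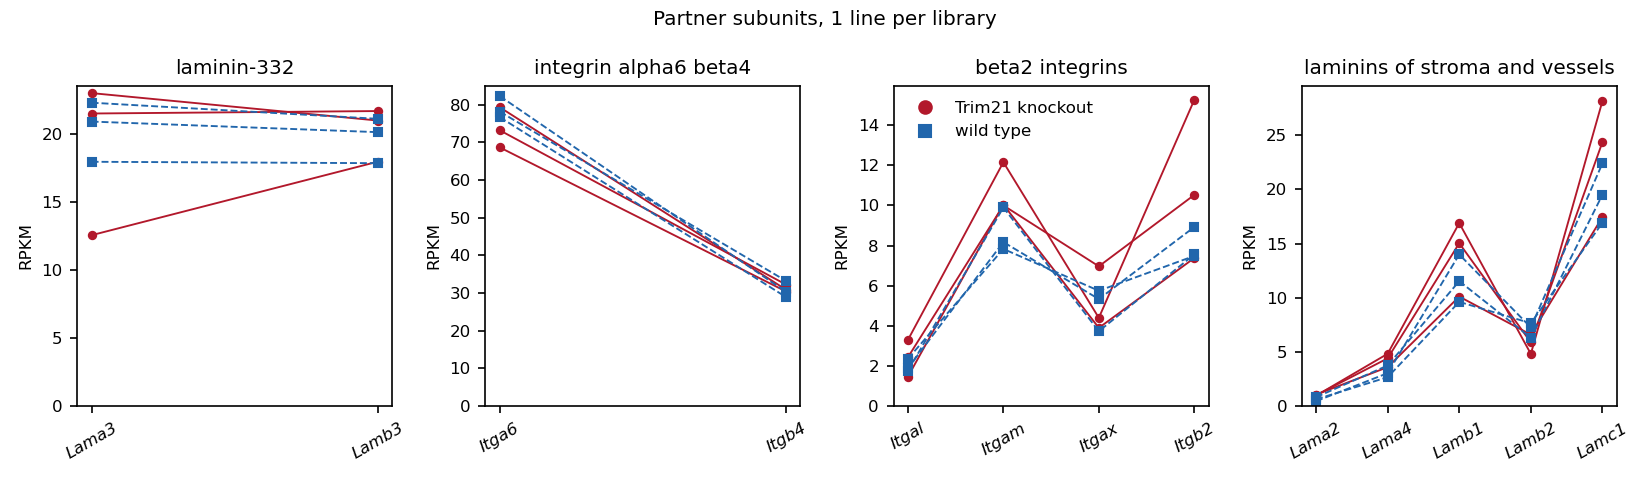
RPKM (y axis, from 0) of chains that assemble together or share a class (x axis), with 1 line per library joining its genes, solid with circles for knockout and dashed with squares for wild type. Itga6 exceeds Itgb4 in every library, and Itgb2 is highest in knockout replicate 3 (15.3 RPKM).

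Itga2, a collagen and laminin receptor chain of epithelium, had 144.5, 143.9 and 177.8 CPM in the knockout and 217.6, 168.7 and 162.0 CPM in the wild type. Its log2 fold change of -0.23 (SE 0.14, edgeR adjusted p = 0.577) was the lowest among the epithelial genes, and the groups overlapped. Itgb6, whose pairing with alpha v activates latent TGF-beta, had 62.3, 93.7 and 116.9 against 96.1, 93.8 and 111.3 CPM. Knockout replicates 1 and 3 were the lowest and highest of all 6, and the log2 fold change was -0.14 (SE 0.22, edgeR adjusted p = 0.825). Itga3, another laminin receptor chain of epithelium, had -0.02 (SE 0.12). Knockout replicate 1 was the lowest library for Lama3, Itgb6 and Itga6, and without it the class median was 0.03 and 5 of 8 genes were above 0.

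Of the 7 tested leukocyte members, 6 had a log2 fold change above 0, with a median of 0.31, and 0.11 without knockout replicate 3. Itgam (CD11b), the alpha chain of the complement receptor of macrophages and neutrophils, had 50.4, 50.2 and 61.1 CPM in the knockout and 41.1, 49.7 and 39.3 CPM in the wild type. It was the only one of the 7 whose groups did not overlap, by a narrow gap between knockout replicate 2 and wild-type replicate 2, with a log2 fold change of 0.31 (SE 0.14, edgeR adjusted p = 0.472). A predicted gene on the same strand shares 68.7% of the Itgam exon bases, so its level is uncertain. Itgb2 (CD18), the beta chain common to this family, had 22.5, 32.1 and 46.6 against 27.2, 23.1 and 22.8 CPM, with the high values in knockout replicates 2 and 3 (log2 fold change 0.47, SE 0.25, edgeR adjusted p = 0.531). It was 0.16 without knockout replicate 3.

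Itgal (CD11a, the lymphocyte partner of CD18) had 9.57, 15.9 and 21.6 CPM in the knockout and 12.4, 11.5 and 15.5 CPM in the wild type. Itgax (CD11c, of dendritic cells and macrophages) had 18.7, 33.4 and 21.1 against 25.6, 17.9 and 27.6 CPM. Both overlapped between the groups, with log2 fold changes of 0.26 and 0.04 (SE 0.29 and 0.26, edgeR adjusted p = 0.763 and 0.961). Itgad (CD11d) held 0, 11 and 6 reads in the knockout and 7, 10 and 14 in the wild type and was removed by the filter on low counts. The 0 in knockout replicate 1 allows up to 0.149 CPM (3 reads, counting error only). These 4 alpha chains lie on chromosome 7, Itgal at 127296260 to 127335138 and Itgam, Itgax and Itgad between 128062640 and 128223816.

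Itga4, the alpha chain that binds VCAM-1 and MAdCAM-1, had 28.9, 53.5 and 69.9 CPM in the knockout and 29.2, 38.8 and 35.1 CPM in the wild type. Knockout replicates 2 and 3 exceeded every wild-type library and knockout replicate 1 was the lowest of all, with a log2 fold change of 0.56 (SE 0.30, edgeR adjusted p = 0.528), and 0.26 without knockout replicate 3 and 0.85 with replicate 1 left out. Its gut-homing partner Itgb7 had 3.37, 4.997 and 6.36 against 2.95, 4.64 and 4.30 CPM (log2 fold change 0.31, SE 0.32, edgeR adjusted p = 0.735), and its log2 fold change was 0.08 without knockout replicate 3 and 0.52 with replicate 1 left out. Itgae (CD103), which pairs with beta7 on intraepithelial lymphocytes and binds E-cadherin, had 4.91, 6.42 and 6.62 against 11.1, 3.72 and 5.45 CPM. Wild-type replicate 1 was the highest library for Itgae and the lowest for Itgb7, and there Itgae per Itgb7 in RPKM was 2.28, against 0.486 to 0.880 in the other 5. The log2 fold change of Itgae was -0.18 (SE 0.40, edgeR adjusted p = 0.888), and 0.38 without that library. General leukocyte markers (5 genes) summed to 113.6 to 234.9 CPM in the knockout and 145.6 to 159.0 CPM in the wild type, lowest in knockout replicate 1, and their part in these values was not tested.

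Of the 9 broad members, 4 had a log2 fold change above 0 and the median was -0.04. Lama5, the alpha chain of the laminin of adult epithelial and vascular basement membranes (chromosome 2, 180176373 to 180225859, minus strand), had 179.6, 222.4 and 154.1 CPM in the knockout and 226.3, 228.8 and 222.8 CPM in the wild type. All knockout values lay below the wild type, knockout replicate 2 only narrowly, and the log2 fold change was -0.29 (SE 0.13, edgeR adjusted p = 0.497). Set against Lama4, Lama5 was at 4.41, 4.44 and 2.81 of its RPKM in the knockout and at 6.56, 5.38 and 7.37 in the wild type, without overlap. With the longest transcripts the ratios were lower, at 1.41 to 2.23 in the knockout and 2.70 to 3.69 in the wild type, again without overlap. This ratio sets a gene with lower knockout values against one with a higher knockout mean, so it adds no separate support. Of the other ratios examined, Itga2 per Itgb1 and Itga8 per Itgb1 also did not overlap, and no background share for ratios is at hand. Itgb1 had 571.1, 632.1 and 698.7 against 724.9, 644.0 and 585.5 CPM, and its log2 fold change was -0.04 (SE 0.12, edgeR adjusted p = 0.919).

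Itgav, the alpha chain of vitronectin and latent TGF-beta receptors, had 203.4, 316.1 and 358.4 CPM in the knockout and 376.0, 339.0 and 300.6 CPM in the wild type, with knockout replicate 1 lowest (log2 fold change -0.21, SE 0.20, edgeR adjusted p = 0.724). Its partner Itgb5 had 38.1, 47.7 and 57.4 against 40.0, 43.4 and 45.7 CPM (log2 fold change 0.15, SE 0.16, edgeR adjusted p = 0.743). Lamc3, a gamma chain of low level, had 2.48, 1.76 and 2.12 against 0.168, 0.643 and 2.74 CPM. Wild-type replicate 3 was the highest of all 6 for Lamc3, and the log2 fold change of 0.85 (SE 0.84, edgeR adjusted p = 0.73) was 2.37 without it and 0.33 without wild-type replicate 1. For the other 4, Itgb3, Lama1, Itgb8 and Itga2b, log2 fold changes lay between -0.35 and 0.22, groups overlapped, and edgeR adjusted p was 0.759 to 0.833. Itgb8, which also activates latent TGF-beta, was lowest in wild-type replicate 3 (1.82 CPM) and highest in wild-type replicate 1 (8.22 CPM).

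Around the receptors, 70 genes of ligands, basement membrane, activators and adaptors were examined, and 0 of 70 passed edgeR's test, beside 0% of all genes. At an unadjusted p under 0.05, 10 were higher and 1 lower in the knockout, beside 6.63% and 4.12% of all genes. DESeq2 called 1 of them, Tns3, which was lower, beside 1.96% of all genes in either direction, 1.41% higher and 0.543% lower, while limma-voom called 0. The log2 fold change was above 0 for 48 of 70 genes, with a median of 0.12.

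Basement membrane genes other than laminins had 8 of 9 values above 0 and a median of 0.26. Hspg2 (perlecan), a proteoglycan of the same sheet, had 85.2, 109.4 and 120.3 CPM in the knockout and 72.1, 85.8 and 81.2 CPM in the wild type (log2 fold change 0.40, SE 0.14, edgeR adjusted p = 0.418). Of the knockout values, replicate 1 alone fell within the wild-type range. Col4a5, a collagen IV chain, had 13.7 to 17.7 against 10.1 to 12.8 CPM without overlap (log2 fold change 0.45, SE 0.17, edgeR adjusted p = 0.418). Among matrix ligands 5 of 9 were above 0, and the smallest p were those of Fbln5 (0.68, SE 0.28, edgeR adjusted p = 0.45) and Edil3 (0.89, SE 0.50, edgeR adjusted p = 0.541), with overlapping groups. Without knockout replicate 3 they were 0.39 and 0.47, and Edil3 was 1.41 without wild-type replicate 2. Of 3 non-integrin laminin receptors, the Lama5 receptor Bcam had -0.40 and dystroglycan, Dag1, had 0.13, both with overlap.

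Cell-surface ligands had 5 of 8 values above 0. Vcam1, a ligand of alpha4 and alpha9 integrins, had 36.7, 59.4 and 68.9 CPM in the knockout and 29.9, 33.1 and 36.3 CPM in the wild type. The groups were separate by a narrow gap, and the log2 fold change was 0.73 (SE 0.23, edgeR adjusted p = 0.374). Like Itga4 and Itga9, which encode its receptor chains, Vcam1 was higher in knockout replicates 2 and 3 than in replicate 1. This order was not particular to them, since Itgb1, Itgav, Lamc1 and the leukocyte marker Ptprc had it too. Itga8 and Itga7 were instead highest in knockout replicate 1. Jam3, a junction protein that binds CD11b, had 7.29, 5.93 and 8.33 against 4.03, 3.55 and 5.005 CPM without overlap (log2 fold change 0.78, SE 0.24, edgeR adjusted p = 0.374).

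Integrin activators had log2 fold changes of -0.09 to 0.31 over 9 genes, with the smallest p for Fermt3, the kindlin of blood cells (0.31, SE 0.20, edgeR adjusted p = 0.597), and the small GTPase gene Rap1a (0.12, SE 0.09, edgeR adjusted p = 0.659). Among 21 adaptors, Tns3, a tensin that binds beta chain tails, had 392.7, 397.7 and 350.1 CPM in the knockout and 563.2, 517.1 and 522.8 CPM in the wild type. Here the gap between the groups exceeded the spread within either, with a log2 fold change of -0.49 (SE 0.09, edgeR adjusted p = 0.322). Tns3 passed the DESeq2 test (log2 fold change -0.49, DESeq2 adjusted p = 0.00128). The actin crosslinker Flna, abundant in smooth muscle, had the opposite sign at 474.9 to 560.2 against 376.1 to 443.0 CPM (log2 fold change 0.35, SE 0.10, edgeR adjusted p = 0.364). Of 4 other hemidesmosome genes, 2 were above 0 and 2 below, from -0.69 to 0.37 with a median of 0.05. Plec and Dst, which tie alpha6 beta4 to keratin, had 0.20 and 0.37 with overlapping groups (edgeR adjusted p = 0.562 and 0.603). All 7 latent TGF-beta genes had log2 fold changes above 0, from 0.02 to 0.61, beside 47.9% of all genes, and the groups overlapped for every one. The smallest p were those of Ltbp1 (0.45, SE 0.18, edgeR adjusted p = 0.437) and Lrrc32 (0.61, SE 0.26, edgeR adjusted p = 0.461).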

How the data were processed

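RNA of each tumour sample was isolated with Trizol and depleted of ribosomal RNA before library construction with a kit for low input, per the labels' protocols. The authors deposited 1 table per sample with the raw count of each gene symbol. Per the submitters' processing notes, the build was mm10 and the tools were TopHat2, edgeR and limma, and the sources here give no read counter, annotation or strand setting. Counts were analysed in R 4.3.3 with edgeR 4.0.16 (quasi-likelihood test, TMM scaling, filterByExpr, group as the only term, all 6 libraries), with Benjamini-Hochberg adjustment over the 16281 genes left and a threshold of 0.05. Standard errors are the log2 fold change divided by the square root of F. DESeq2 1.42.0 and limma-voom (limma 3.58.1) were alternatives, beside other scalings, filters, a replicate block and the omission of each library. RPKM used exon lengths of GENCODE M21 (mm10), which held all 37 members, and exons of 12 members share bases with another gene. Counts, medians and sums include 1 member that is not reported here. Members, classes and gene lists were chosen with earlier results of these data known, and the counts of members without single libraries were added after seeing the data. Named with all values were, in each class, the 4 genes with the smallest unadjusted p and the most abundant, fixed chains of laminin-332 and of the alpha6 beta4, alphaE beta7 and beta2 integrins, and 2 genes per pathway role. Lama4, Itga7 and other members shown singly were added after their values were seen. In simulated counts of this comparison with 16048 genes, edgeR recovered 40%, 66%, 90% and 100% of genes changed by a log2 fold change of 1, 1.5, 2 and 3. There 6 of 154 edgeR calls and 59 of 227 DESeq2 calls were false. The labels call the samples biological replicates but do not tie each to its own mouse, so the p-values reflect the spread among these samples.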

Additional observations from a re-analysis of the deposited data

How the results depend on the processing

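The count of members past the test was 0 in all 14 alternative fits. Over all genes it was 335 with DESeq2 and 0 to 1 when single libraries were left out (1 without wild-type replicate 3), and for the 70 surrounding genes it was 1 with DESeq2. The stromal median ranged from 0.22 (without knockout replicate 3) to 0.51 (without knockout replicate 1). With Lamb1 and Lamc1 counted as broad it was 0.50, and the broad median was then 0.15. Over the omissions the epithelial median ranged from -0.17 to 0.031, the leukocyte median from 0.11 to 0.45 and the broad median from -0.12 to 0.10. Log2 fold changes that changed sign when 1 library was left out, with their range over the 6 omissions, were those of Itgav (-0.38 to 0.0016), Itgb5 (-0.0045 to 0.30), Itgb8 (-0.77 to 0.056), Itga2b (-0.54 to 0.29), Itgb1 (-0.12 to 0.044), Itgb6 (-0.37 to 0.075), Lama3 (-0.26 to 0.13), Lamb3 (-0.029 to 0.12), Itgb4 (-0.027 to 0.073), Itga3 (-0.13 to 0.054), Itgal (-0.043 to 0.52), Itgae (-0.47 to 0.38), Itgax (-0.25 to 0.21), Itga1 (-0.20 to 0.47), Bcam (-0.64 to 0.051). A further 20 named genes kept their sign but moved by over 1.5 times in some omission, namely Dag1 (0.03 to 0.21), Dst (0.14 to 0.51), Edil3 (0.47 to 1.41), Fbln5 (0.39 to 0.90), Fermt3 (0.17 to 0.45), Itga2 (-0.34 to -0.09), Itga4 (0.26 to 0.85), Itga5 (0.095 to 0.31), Itga6 (-0.16 to -0.045), Itgb2 (0.16 to 0.70), Itgb3 (0.016 to 0.43), Itgb7 (0.076 to 0.52), Lama1 (0.018 to 0.52), Lama5 (-0.44 to -0.17), Lamb1 (0.10 to 0.45), Lamb2 (-0.40 to -0.18), Lamc1 (0.091 to 0.43), Lamc3 (0.33 to 2.37), Plec (0.10 to 0.30), Rap1a (0.056 to 0.16). None of the named log2 fold changes changed sign under another scaling, filter or tool or with the block. Same-numbered samples did not deviate together (correlations of -0.147, -0.175 and -0.0734 across genes, beside -0.092 to 0.227 for samples of different number). These values show no pairing by replicate number, but with 3 samples per group they cannot exclude one. With the replicate block, 0 members and 0 genes passed, 5 members had an unadjusted p under 0.05, and the class medians were -0.12 (epithelial), 0.29 (leukocyte), 0.34 (stromal), -0.039 (broad). The cause of these changes was not tested. Depth limits Itgad, Itga2b and Lamc3 most, which rest on 48, 215 and 221 reads in all.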
